A study of Mus musculus with 15 samples.

Results

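The genes described here are 40 genes of fatty acid oxidation and targets of the nuclear receptor PPARA, followed across 15 Affymetrix arrays of primary mouse hepatocytes. They were chosen by name, with earlier results of these data known. A gene was represented by the probe set that carried its symbol alone and, where there were several, by the brightest of them on average. All 40 had such a probe set, out of 18193 genes with one, and all 40 reached a log2 signal of 4 on every array. The lowest was Abcd2, a peroxisomal fatty acid transporter, at 4.02 to 4.58, which is close to the limit used to call a gene measured. The 40 genes were therefore all among the 16294 genes tested.

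The hepatocytes came from C57BL/6 mice and were infected in culture with adenoviruses, in 5 groups of 3 arrays. One arm received wild-type IRE1a (WT IRE1a), IRE1a with a serine replaced by alanine (S724A IRE1a) or the fluorescent protein EGFP for 48 hours, with no further treatment. The other arm received a hairpin against IRE1a (shIRE1a, the single hairpin the labels call #2) or a control hairpin (shCON) for 72 hours, and both of its groups then received glucagon for 4 hours. Every group thus carried an adenovirus, every hairpin group also received glucagon, and no group had a hairpin without it. The series text describes 3 independent experiments; the labels give neither the age of the animals nor whether cells were pooled. IRE1a, encoded by Ern1, is a sensor of unfolded proteins in the membrane of the endoplasmic reticulum, with a kinase and an RNase domain; the serine lost in S724A is a phosphorylation site in the activation loop of the kinase.

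Fatty acids are burnt in hepatocytes in a fixed order of steps. Carnitine carriers bring activated long-chain fatty acids into mitochondria, a spiral of dehydrogenase, hydratase and thiolase reactions shortens them, and electron transfer proteins pass the electrons to the respiratory chain, while peroxisomes shorten very long chains first. PPARA, bound to its partner RXR, is activated by fatty acids in fasting and raises the transcription of many of these enzymes in liver, together with secreted factors such as FGF21. Glucagon, the hormone of the fasted state, acts through cyclic AMP and CREB. Values below are log2 signals, so a difference of 1 is a doubling of the signal. A gene is said to have risen or fallen where limma's moderated test, adjusted by Benjamini-Hochberg over the 16294 genes, gave an adjusted p under 0.05. Changes are given with their standard error (SE, n = 3 arrays per group). In the model of 5 group means this SE rests on the gene's variance pooled over all groups, not on the compared arrays alone.

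The replicate 3 array of WT IRE1a stood apart: on it, 6.89% of 3440 genes with 2 bright probe sets had a difference between the 2 that lay over 1 from its median over the arrays, against 0 to 0.262% on the other 14. The beta-actin control read 13.34 at its 3' end there, against 13.96 to 14.38 elsewhere, and its 3' end exceeded its 5' end by 1.00, against 0.38 to 0.61 elsewhere. For genes called with WT IRE1a, the text says where leaving out that array ended the call. Arrays of the same arm with the same replicate number also deviated together, so calls are given with the replicate number as a block where this changed them. This held for all 12 same-number pairs of arrays within an arm.

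Ern1 itself read 7.60, 7.44 and 7.51 in shIRE1a hepatocytes, against 8.89, 8.96 and 9.10 in shCON hepatocytes, and fell by 1.47 ± 0.19 on the log2 scale (adjusted p = 0.00293). In the arm without hairpins it read 9.30, 8.89 and 9.07 with WT IRE1a and 9.68, 9.04 and 9.54 with S724A IRE1a, against 9.41, 8.68 and 8.81 with EGFP. The differences from EGFP were 0.12 ± 0.19 (adjusted p = 0.775) and 0.46 ± 0.19 (adjusted p = 0.159; 0.0215 with the replicate block). The knockdown is thus visible in every array, while the Ern1 probe sets gave no such check of the overexpression, since it is not known here whether they lie in the sequence that the viruses carried. Albumin stood at 14.15 to 14.56 over the 3 groups without hairpins and at 14.20 to 14.46 in the hairpin arm, so the main hepatocyte transcript was abundant on every array.

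The first comparison asked how wild-type IRE1a altered these genes at 48 hours. Most of the 40 lay higher with WT IRE1a than with EGFP. Fgf21, Ehhadh and Pdk4, at 3.16, 2.16 and 2.02 times the EGFP signal on average, had the largest changes. Hadhb, the beta subunit of the mitochondrial trifunctional protein, was the 1 member that rose past the threshold (0.45 ± 0.13, adjusted p = 0.0473), where 7.67% of all genes tested were called (5.08% higher). With the replicate block 14 of the 40 were called, 13 higher and 1 lower, where 15.6% of all genes were called (10.6% higher and 4.99% lower). The 13 were Fgf21, Ehhadh, Pdk4, Acot1, Creb3l3, Angptl4, Ech1, Slc25a20, Eci2, Hadhb, Cpt1a, Etfdh and Acadm, and the 1 lower was Cpt2.

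The median change of the 40 genes between WT IRE1a and EGFP was 0.29, against 0.00 over all genes tested, with 29 positive and 11 negative. For 17 genes the 3 WT IRE1a arrays all lay above the 3 EGFP arrays, as they did for 15.8% of all genes tested, and for 3 they all lay below (10.9% of all genes). Taken pair by pair, 26 of 40 were higher in all 3 same-number pairs, a share of 65% beside 24.9% of all genes, and 3 (Cpt2, Eci1 and Acaa1a) were lower in all 3 (19.7% of all genes). Without the replicate 3 array of WT IRE1a, none was called (5.17% of all genes; limma, 9 of 40 with the replicate block and 9.58% of all genes), the median change was 0.24 and 30 were positive. Leaving out EGFP replicate 2 or WT IRE1a replicate 2 instead also gave 0 calls, and leaving out WT IRE1a replicate 1 gave 2. Over the 6 fits that each left out 1 array, 715 to 1108 of all genes were called. The 9 called with the block were all higher and were Fgf21, Ppara, Ehhadh, Pdk4, Creb3l3, Angptl4, Ech1, Slc25a20 and Hadhb. In all 5 fits with the block, which differed in scaling, in the choice of probe set or in leaving out that array, 7 genes were called higher: Angptl4, Creb3l3, Ech1, Ehhadh, Fgf21, Pdk4 and Slc25a20. The share of all genes called higher in all 5 is not given here. In the block fit without that array 5.54% of all genes were called higher. With quantile normalisation and the block the 14 calls split into 11 higher and 3 lower, beside 1552 higher and 1204 lower of all genes.

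Other cells in the culture could carry some of these transcripts, and in bulk RNA a change in cell number cannot be told apart from a change in RNA per cell. The summed linear signal of 6 macrophage markers was 4403 to 4726 with WT IRE1a and 3781 to 4425 with S724A IRE1a, against 3264 to 3774 with EGFP, so it moved with the virus. Nearly all of that sum was Cd68 (12.07 ± 0.06 with WT IRE1a, 11.95 ± 0.13 with S724A IRE1a and 11.66 ± 0.12 with EGFP; SD, n = 3). The defining Kupffer cell markers Adgre1, Clec4f, Vsig4 and Marco had group means between 4.10 and 5.44 in these 3 groups. The remaining marker of the list, Csf1r, lay higher, at 6.905 with WT IRE1a, 6.67 with S724A IRE1a and 6.88 with EGFP. The sum of 7 hepatocyte markers overlapped between WT IRE1a (62710 to 68700) and EGFP (62890 to 65590). Of the 7, Hnf4a and Fgb lay wholly above EGFP with WT IRE1a and Alb and Ttr wholly below. Without the block Hnf4a, a hepatocyte transcription factor, was the 1 called (limma, 0.74 ± 0.18, adjusted p = 0.0237, and 0.106 without the replicate 3 array). With the block and without that array, Hnf4a (0.73 ± 0.14, adjusted p = 0.00724) and Tat (0.51 ± 0.14, adjusted p = 0.0359) were called higher. In that fit 9.58% of all genes were called. Alb, at 14.28 to 14.33 with WT IRE1a and 14.44 to 14.56 with EGFP, changed by -0.18 ± 0.09 (adjusted p = 0.29). With S724A IRE1a the endothelial, stellate, adipocyte, and lymphoid and neutrophil sums lay wholly below EGFP (endothelial 275.7 to 315.4 against 323.5 to 369.8). With WT IRE1a only the adipocyte sum did (92.42 to 103.6 against 105.5 to 117.3). The cholangiocyte and erythroid sums overlapped EGFP with both IRE1a viruses, as did the hepatocyte sum with S724A IRE1a. Between shIRE1a and shCON only the adipocyte sum did not overlap (97.5 to 120.7 against 74.36 to 96.4). The part of these markers in the results was not tested.

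S724A IRE1a was set against EGFP as the mutant that lacks the phosphorylation site. None of the 40 genes was called (limma), where 6.12% of all genes tested were. An unadjusted p under 0.05 was found for 5, a limit for which no share of all genes is given here. With the replicate block 3 rose, Angptl4, Creb3l3 and Fgf21 (14.4% of all genes, 8.89% higher and 5.52% lower). With quantile normalisation and the block the 3 calls were Angptl4 higher and Cpt2 and Acaa1a lower, beside 1088 higher and 1200 lower of all genes. The median change was 0.21, against -0.01 over all genes; it was 0.12 with quantile normalisation and 0.10 without EGFP replicate 2. The S724A IRE1a arrays lay wholly above those of EGFP for 10 genes (16.5% of all genes) and wholly below for 4 (16.8%). In the 3 same-number pairs, 18 genes were higher throughout (27.3% of all genes) and 4 lower throughout (27.5%).

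The direct comparison of WT IRE1a with S724A IRE1a called none of the 40 genes (limma) and 0 of all 16294; with the block the counts were 0 and 2 (0.0123%). Unadjusted p-values under 0.05 numbered 1 of the 40 without and 8 with the block (limma). The share of all genes under that limit is not given here, so these counts have no background beside them. The 95% confidence intervals of the differences reached from -1.42 for Ppara to 2.05 for Fgf21, with a median half-width of 0.37, so differences of that size between the viruses were within the error. The interval left out 0 for 1 gene, Acaa2, the mitochondrial 3-ketoacyl-CoA thiolase, at 10.85, 10.77 and 10.82 with WT IRE1a and 10.52, 10.52 and 10.35 with S724A IRE1a (0.35 ± 0.09, adjusted p = 0.706). Of the 40, 18 were higher with WT IRE1a in all 3 pairs (22.6% of all genes) and 1, Cpt2, was lower (14.4%). Without the replicate 3 array of WT IRE1a, the median difference was 0.04 and 26 were positive, against 0.12 and 31 with it. The comparisons of each virus with EGFP share the EGFP arrays, so their values stand side by side and are not independent of each other.

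Knockdown of IRE1a was compared under glucagon. Of the 40 genes 1 rose in shIRE1a over shCON hepatocytes, Slc22a5, the plasma membrane carnitine transporter (0.78 ± 0.13, adjusted p = 0.0212), where 0.233% of all genes tested were called (0.0491% higher); with the block it was again the 1 called (1.23%). The median change was 0.16, against 0.02 over all genes, with 30 positive and 10 negative. It was 0.08 with the mean of probe sets, 0.06 without shIRE1a replicate 1 and 0.10 without shCON replicate 3. The groups did not overlap for 3 genes that were higher with shIRE1a (6.05% of all genes) and 1 that was lower (5.49%). In 15 genes shIRE1a lay above shCON in all 3 pairs (18.4% of all genes) and in 4 below (17%). The shIRE1a replicate 1 array held the highest value of the arm for 19 of the 40 genes, and the shCON replicate 3 array held the lowest for 19.

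**Figure D1:**
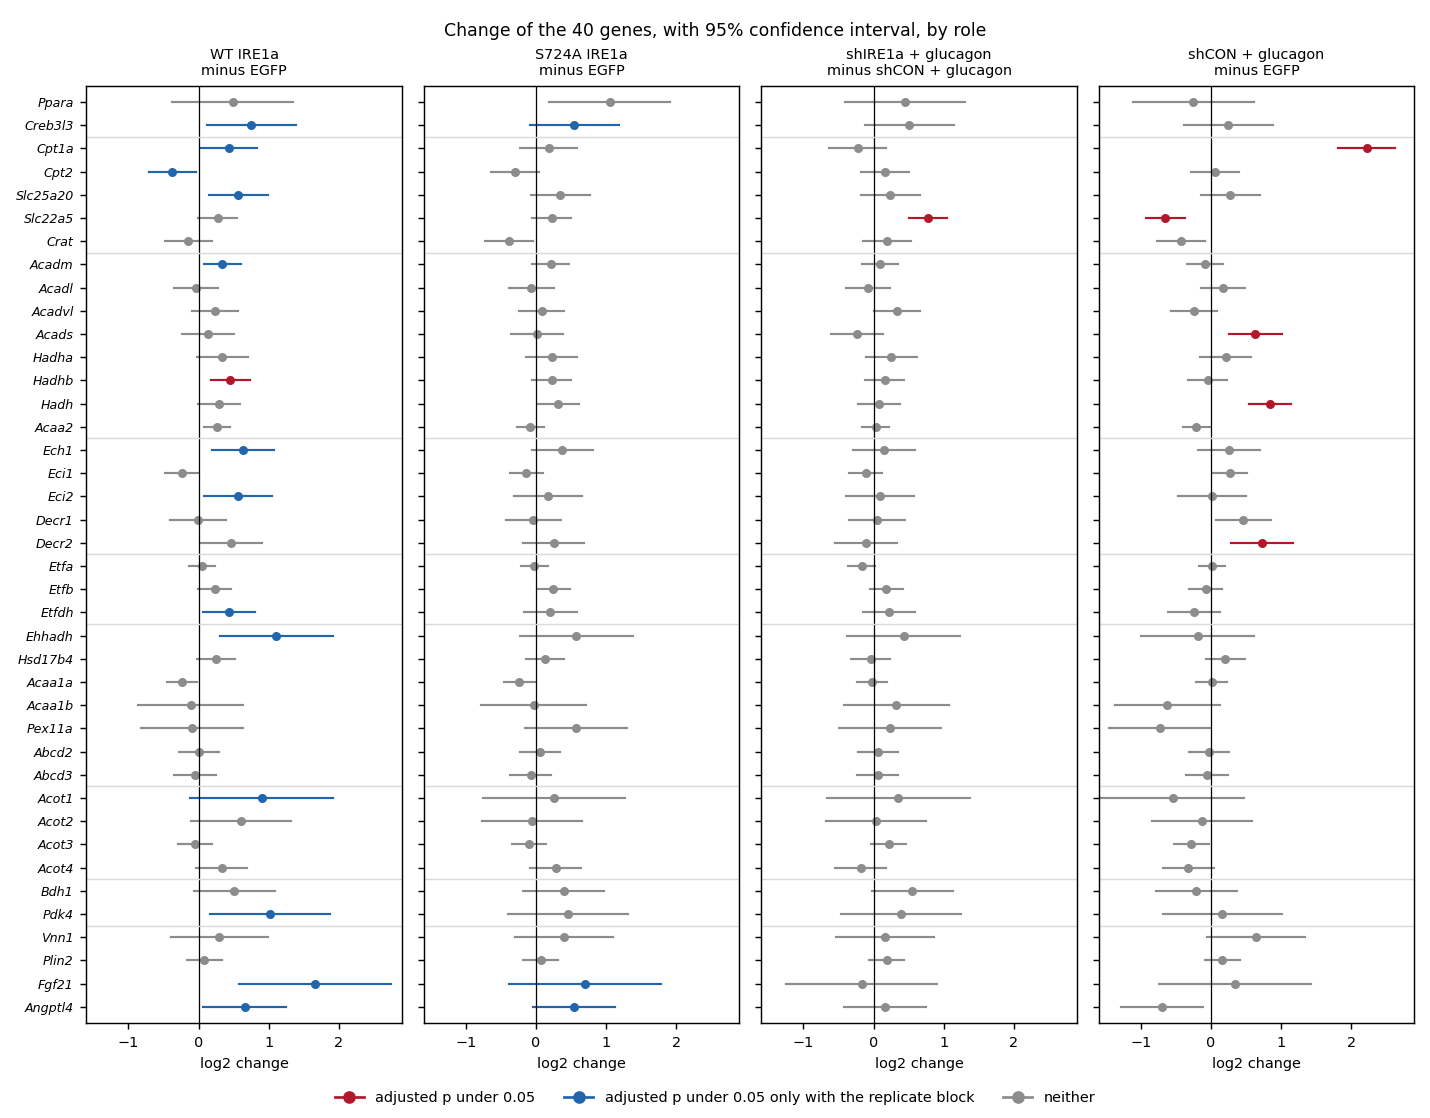
Change in log2 signal of each of the 40 genes (points) with its 95% confidence interval (lines) in 4 comparisons, genes grouped by role from regulators at the top to secreted and other PPARA targets at the bottom; red marks an adjusted p under 0.05, blue an adjusted p under 0.05 with the replicate block only. Most points lie right of 0 for WT IRE1a minus EGFP (29 of 40), and Cpt1a at 2.22 stands apart in the comparison of shCON with glucagon and EGFP.

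The control hairpin with glucagon was also set against EGFP. Virus, hours of infection and glucagon differ together between these groups and cannot be told apart, and the replicate numbers did not pair arrays across the arms, so no block was used. Of the 40 genes 5 were called, where 16.1% of all genes tested were (9.34% higher and 6.74% lower): Cpt1a, Hadh, Decr2 and Acads rose and Slc22a5 fell. Leaving out shCON replicate 3 gave 8 calls, and leaving out EGFP replicate 2 or 3 or shCON replicate 1 or 2 gave 3. Over the 6 fits that each left out 1 array, the genes called in all also varied, from 1330 to 2756. The change of Cpt1a was 2.22, or 4.66-fold, and those of the other 4 lay between 1.55-fold and 1.79-fold. The 40 split evenly, 20 positive and 20 negative, and the groups did not overlap for 5 that were higher (16.6% of all genes) and 7 that were lower (19.6%).

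Among the regulators, Ppara gave different pictures on its 3 probe sets. The brightest read 9.78, 9.94 and 8.37 with WT IRE1a and 9.25, 9.82 and 10.71 with S724A IRE1a, against 9.13, 8.19 and 9.32 with EGFP. The groups overlap, and neither difference passed (0.48 ± 0.40, adjusted p = 0.535, and 1.05 ± 0.40, adjusted p = 0.131). The third probe set of Ppara instead had its highest value of all arrays, 9.48, on the replicate 3 array of WT IRE1a, where the brightest had 8.37. Without that array the change of Ppara with WT IRE1a was 0.98 ± 0.35 (adjusted p = 0.146) and 1.29 ± 0.26 with the block (adjusted p = 0.00913), while the difference from S724A IRE1a was -0.07 ± 0.35 without it and -0.56 ± 0.40 with it. With shIRE1a Ppara read 9.12, 8.96 and 9.15, against 8.66, 8.55 and 8.68 with shCON. These 2 groups did not overlap on any of the 3 Ppara probe sets, but the change of 0.45 ± 0.40 did not pass (adjusted p = 0.792). That SE pools all groups and is wider than the spread of these arrays. On the brightest probe set the SD was 0.07 with shCON and 0.10 with shIRE1a. It was 0.61 with EGFP, 0.87 with WT IRE1a and 0.74 with S724A IRE1a. The change passed in none of 15 alternatives, among them the fit on the arrays of these 2 groups alone (limma, adjusted p from 0.48).

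**Figure D2:**
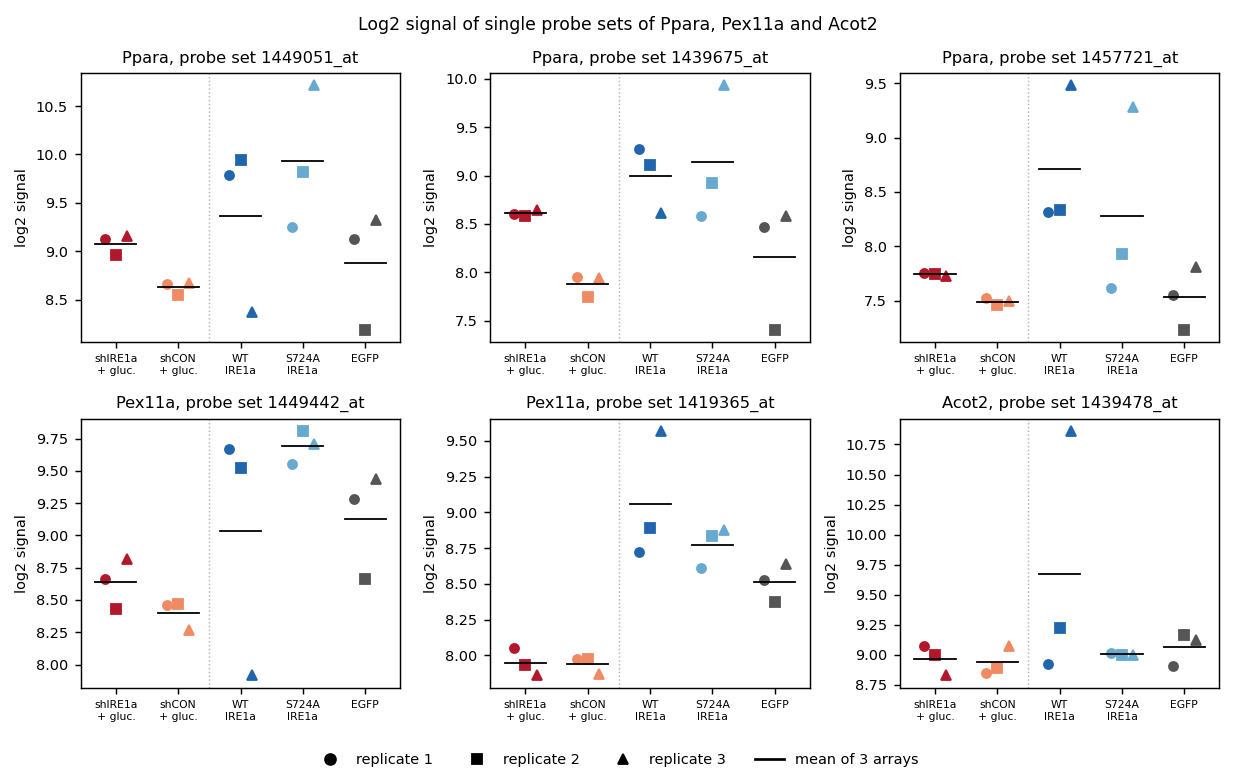
Log2 signal of 6 probe sets of Ppara, Pex11a and Acot2 on each array, by group, with circles, squares and triangles for replicates 1, 2 and 3 and a line at the mean of 3 arrays. The triangle of WT IRE1a lies low on the first probe set of Ppara (8.37) and of Pex11a (7.92), high on the last probe set of Ppara (9.48) and the second of Pex11a (9.57), and far above all others for Acot2 (10.86).

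Creb3l3 encodes CREBH, a liver transcription factor held in the membrane of the endoplasmic reticulum until it is cleaved, and a partner of PPARA at Fgf21 in mouse liver. It read 9.99, 10.14 and 10.10 with WT IRE1a and 9.69, 9.90 and 10.02 with S724A IRE1a, against 9.31, 9.27 and 9.39 with EGFP. Every array of either IRE1a virus lay above every EGFP array. The changes were 0.75 ± 0.30 (adjusted p = 0.151; 0.00483 with the block) and 0.54 ± 0.30 (adjusted p = 0.277; 0.0303 with the block). In the hairpin arm Creb3l3 read 10.81, 9.41 and 10.0002 with shIRE1a and 10.22, 9.42 and 9.06 with shCON, a wider spread than in the other arm. Fitted on the 6 arrays of each comparison alone, both changes passed (adjusted p = 0.00549 and 0.0252). Creb3l3 has 2 promoter windows in RefSeq (GRCm38.p6, the 250 bases before each start, minus strand). The one directly before the 5' end of the gene (chr10:81098873-81099122) held neither half-site searched for. The other (chr10:81092592-81092841) lies before a start within the gene. It is shown because the gene rose with the block and this window holds both half-sites. Capitals mark TGACG, the CRE half-site, and AGGTCA, the nuclear receptor half-site.
Creb3l3: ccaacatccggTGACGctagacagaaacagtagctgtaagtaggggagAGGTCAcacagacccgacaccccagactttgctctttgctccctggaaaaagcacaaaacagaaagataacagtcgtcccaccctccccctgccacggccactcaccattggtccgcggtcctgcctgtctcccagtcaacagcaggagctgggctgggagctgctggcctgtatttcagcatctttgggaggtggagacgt

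The carnitine shuttle held the largest change of the 40 genes. Cpt1a, the outer-membrane carnitine palmitoyltransferase that controls entry of long-chain fatty acids into mitochondria, read 11.88, 11.63 and 11.05 with shCON and glucagon, against 9.35, 9.26 and 9.29 with EGFP. No array of one group came near the other, and the rise of 2.22 ± 0.19 (adjusted p = 6.36e-06) recurred on the other 2 Cpt1a probe sets (2.38 ± 0.21 and 2.36 ± 0.25). The shIRE1a arrays read 11.62, 11.10 and 11.15 for Cpt1a, -0.23 ± 0.19 from shCON (adjusted p = 0.779). WT IRE1a gave 9.54, 9.69 and 9.96 and S724A IRE1a 9.36, 9.51 and 9.57, all above the EGFP arrays. The WT IRE1a change of Cpt1a was 0.43 ± 0.19 (adjusted p = 0.201; 0.0374 with the block) and that of S724A IRE1a 0.18 ± 0.19 (adjusted p = 0.584). The Cpt1a call with the block was lost without the replicate 3 array of WT IRE1a (0.34 ± 0.14, adjusted p = 0.182), and with quantile normalisation or the mean of probe sets. The Cpt1a promoter window (RefSeq, GRCm38.p6, chr19:3323051-3323300, plus strand) is shown because it belongs to the gene that changed most; capitals mark TGACCT, a nuclear receptor half-site read on the other strand.
Cpt1a: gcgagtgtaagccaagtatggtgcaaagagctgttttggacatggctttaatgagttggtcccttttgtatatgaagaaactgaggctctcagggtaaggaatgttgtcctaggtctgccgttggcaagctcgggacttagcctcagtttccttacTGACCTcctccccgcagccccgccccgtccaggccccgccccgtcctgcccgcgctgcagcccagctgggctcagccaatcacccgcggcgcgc

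Slc22a5 (OCTN2), which takes up carnitine into the cell, was lowest with shCON. It read 8.56, 8.55 and 8.44 with shIRE1a and 7.73, 7.62 and 7.86 with shCON, a clean separation and a rise of 0.78 ± 0.13 (1.71-fold). With EGFP it read 8.40, 8.27 and 8.50, so that shCON was lower than EGFP by -0.65 ± 0.13 (adjusted p = 0.0044); both results rest on the same 3 shCON arrays. The shIRE1a values thus lay near those of the arm without hairpins (WT IRE1a 8.52, 8.49 and 8.97; S724A IRE1a 8.56, 8.52 and 8.74). The second Slc22a5 probe set was dimmer and read 6.85, 6.55 and 6.97 with shIRE1a, against 6.50, 6.44 and 6.15 with shCON, also without overlap; its change of 0.42 ± 0.13 did not pass (adjusted p = 0.351). The call with shIRE1a was lost in 7 of 15 alternatives (adjusted p up to 0.12), among them each of the 5 that left out an array other than shCON replicate 3. The Slc22a5 window (RefSeq, GRCm38.p6, chr11:53891704-53891953, minus strand) is shown because this was the 1 gene of the 40 called between the hairpins; capitals mark CGTCA, a CRE half-site read on the other strand.
Slc22a5: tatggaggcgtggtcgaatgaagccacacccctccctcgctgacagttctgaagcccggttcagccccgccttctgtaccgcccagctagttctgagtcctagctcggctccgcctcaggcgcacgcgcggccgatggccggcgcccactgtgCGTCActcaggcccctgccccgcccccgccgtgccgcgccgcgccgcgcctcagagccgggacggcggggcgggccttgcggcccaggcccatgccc

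The remaining shuttle genes differed in direction. Slc25a20, which exchanges acylcarnitine for carnitine across the inner membrane, read 9.98, 9.93 and 10.49 with WT IRE1a and 9.62, 9.89 and 10.23 with S724A IRE1a, against 9.61, 9.33 and 9.76 with EGFP. The WT IRE1a arrays lay above all EGFP arrays and those of S724A IRE1a overlapped them. Its WT IRE1a change of 0.57 ± 0.20 passed with the block (adjusted p = 0.00849; 0.0984 without). Cpt2, which releases the acyl group inside the mitochondrion, ran the opposite way: 9.65, 9.62 and 9.90 with WT IRE1a and 9.76, 9.72 and 9.90 with S724A IRE1a, all below 10.12, 10.05 and 10.12 with EGFP. The fall of Cpt2 with WT IRE1a was -0.37 ± 0.16 (adjusted p = 0.185; 0.0336 with the block). Without the replicate 3 array of WT IRE1a it was -0.43 ± 0.13 with the block (adjusted p = 0.0542), the call was also lost with median centring or the mean of probe sets, and on the second probe set of Cpt2 the change was 0.01 ± 0.16. Crat, carnitine acetyltransferase, read 8.40, 8.17 and 8.31 with S724A IRE1a, wholly below 8.63, 8.93 and 8.48 with EGFP (-0.39 ± 0.16, adjusted p = 0.154), and 8.67, 8.44 and 8.48 with WT IRE1a.

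**Figure D3:**
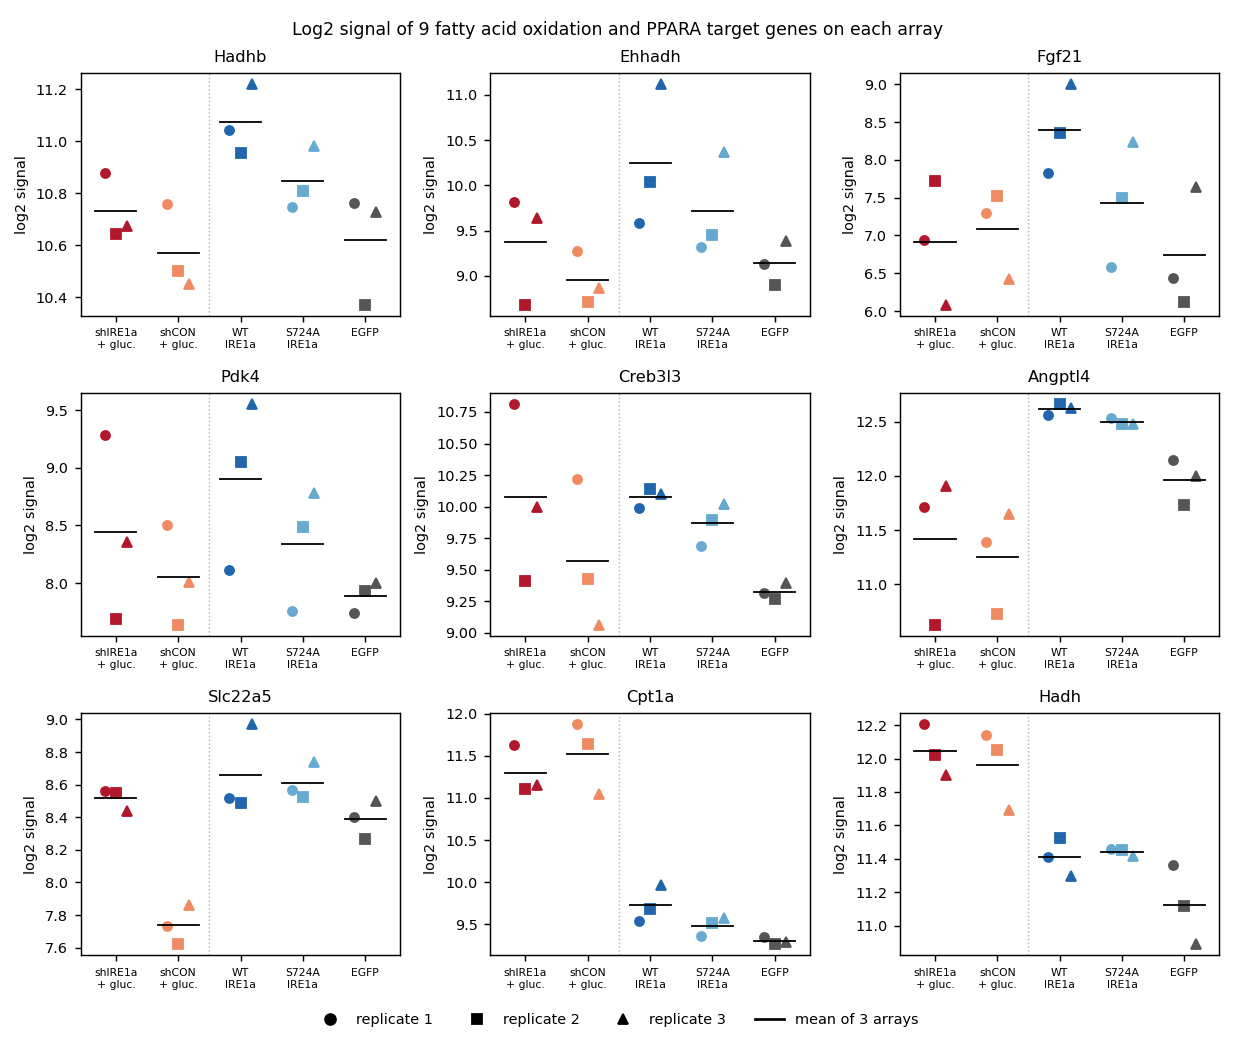
Log2 signal of 9 of the genes on each array, by group, with circles, squares and triangles for replicates 1, 2 and 3 and a line at the mean of 3 arrays; the dotted line divides the hairpin arm with glucagon from the arm without hairpins, and each panel has its own vertical scale. WT IRE1a lies above EGFP on every array for Hadhb, Ehhadh, Fgf21, Pdk4, Creb3l3 and Angptl4, Slc22a5 is lowest with shCON, and Cpt1a and Hadh are higher in the hairpin arm.

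Within the mitochondrial spiral, Hadhb read 11.04, 10.96 and 11.22 with WT IRE1a and 10.75, 10.81 and 10.98 with S724A IRE1a, against 10.76, 10.37 and 10.73 with EGFP. The WT IRE1a arrays lay above all EGFP arrays, while those of S724A IRE1a overlapped both. The call of 0.45 ± 0.13 was lost on leaving out any array compared other than EGFP replicate 1, and under 6 other alternatives, with adjusted p up to 0.208; without the replicate 3 array of WT IRE1a it was 0.38 ± 0.14 (adjusted p = 0.177). Hadha, the alpha subunit, which carries the hydratase and long-chain dehydrogenase activities, changed by 0.34 ± 0.17 (adjusted p = 0.275). Hadha and Hadhb are neighbouring genes read in opposite directions. The Hadhb window (RefSeq, GRCm38.p6, chr5:30155003-30155252, plus strand) is shown because it serves the gene that passed, and it has no capitals because none of the motifs searched was in it.
Hadhb: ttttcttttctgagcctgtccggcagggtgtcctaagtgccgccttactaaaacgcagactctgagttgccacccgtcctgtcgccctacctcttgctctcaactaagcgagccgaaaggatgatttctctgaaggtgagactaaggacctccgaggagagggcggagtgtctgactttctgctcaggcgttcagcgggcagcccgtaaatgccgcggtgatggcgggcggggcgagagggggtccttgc

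Hadh, the short-chain 3-hydroxyacyl-CoA dehydrogenase, was instead higher in the hairpin arm. It read 12.14, 12.05 and 11.69 with shCON and glucagon, against 11.36, 11.12 and 10.89 with EGFP, a rise of 0.84 ± 0.14 (adjusted p = 0.00158) that its second probe set shared (0.60 ± 0.11, adjusted p = 0.00328). With shIRE1a Hadh read 12.21, 12.02 and 11.90, close to shCON (0.08 ± 0.14). Acads, the short-chain acyl-CoA dehydrogenase, read 9.45, 9.05 and 8.75 with shCON and 8.62, 8.39 and 8.34 with EGFP (0.63 ± 0.17, adjusted p = 0.0253). The shCON values of Acads all lay above those of EGFP, but the call was lost in 6 of 14 alternatives (adjusted p up to 0.116), 4 of which left out EGFP replicate 2 or 3 or shCON replicate 1 or 2.

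The acyl-CoA dehydrogenases of longer chains changed by -0.04 to 0.34 with WT IRE1a. Acadm, for medium chains, read 12.63, 12.36 and 12.69 with WT IRE1a and 12.57, 12.39 and 12.32 with S724A IRE1a, against 12.29, 12.13 and 12.25 with EGFP; the WT IRE1a change of 0.34 ± 0.12 passed with the block (adjusted p = 0.0392; 0.115 without). That Acadm call was lost without the replicate 3 array of WT IRE1a (0.25 ± 0.11 with the block, adjusted p = 0.2), and with quantile normalisation or median centring added to the block. Acadl and Acadvl, for long and very long chains, changed by -0.04 ± 0.15 and 0.23 ± 0.15 with WT IRE1a. With shIRE1a, Acadvl read 10.71, 10.45 and 10.24, against 10.36, 10.29 and 9.77 with shCON; it was the member of the spiral with the smallest p there (0.33 ± 0.15, adjusted p = 0.637). Over the 8 spiral genes the median change was 0.28 with WT IRE1a and 0.14 with S724A IRE1a against EGFP, and 0.09 with shIRE1a against shCON.

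The auxiliary enzymes prepare unsaturated fatty acids for the spiral. Ech1, a dienoyl-CoA isomerase of mitochondria and peroxisomes, read 10.16, 10.26 and 10.85 with WT IRE1a and 10.01, 10.08 and 10.41 with S724A IRE1a, against 9.81, 9.56 and 10.002 with EGFP. Both IRE1a groups lay above EGFP on all arrays, and the WT IRE1a change of 0.63 ± 0.20 passed with the block (adjusted p = 0.00458; 0.0764 without). Eci2, an enoyl-CoA isomerase, read 10.06, 10.35 and 10.97 with WT IRE1a, against 9.88, 9.71 and 10.11 with EGFP (0.56 ± 0.23; adjusted p = 0.0109 with the block), but was not called without the replicate 3 array of WT IRE1a (0.48 ± 0.15 with the block, adjusted p = 0.0641). Its mitochondrial relative Eci1 had 9.14, 9.43 and 9.35 with WT IRE1a, all below 9.57, 9.48 and 9.59 with EGFP (-0.24 ± 0.11, adjusted p = 0.244). Decr2, the peroxisomal dienoyl-CoA reductase, rose in shCON with glucagon, at 9.36, 9.14 and 8.34 against 8.21, 8.23 and 8.21 with EGFP (0.73 ± 0.20, adjusted p = 0.0268). The shCON values of Decr2 spread far more widely than those of EGFP, and the call was lost in 8 of 14 alternatives (adjusted p up to 0.123), among them each that left out 1 of the EGFP arrays or shCON replicate 1 or 2. The mitochondrial reductase Decr1 changed by 0.46 ± 0.19 there (adjusted p = 0.103).

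Electrons from the acyl-CoA dehydrogenases pass to ETF, made of Etfa and Etfb, and on to ubiquinone through Etfdh. Etfdh read 11.19, 11.28 and 11.65 with WT IRE1a and 10.84, 11.15 and 11.47 with S724A IRE1a, against 11.01, 10.74 and 11.10 with EGFP. Its WT IRE1a arrays were all above EGFP and the change of 0.43 ± 0.17 passed with the block (adjusted p = 0.0284; 0.163 without). Without the replicate 3 array of WT IRE1a the Etfdh change was 0.41 ± 0.14 with the block (adjusted p = 0.104), and the call was also lost with the mean of probe sets. Etfb with S724A IRE1a, at 10.998, 11.10 and 11.08, lay above 10.78, 10.74 and 10.93 with EGFP (0.24 ± 0.11, adjusted p = 0.195). Etfa with shIRE1a, at 11.01, 10.95 and 11.02, lay just below 11.21, 11.25 and 11.03 with shCON (-0.17 ± 0.09, adjusted p = 0.669). The 3 genes thus spanned changes of 0.05 to 0.43 with WT IRE1a.

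The peroxisomal genes did not move as a group. Ehhadh, the bifunctional enzyme of the peroxisomal spiral and a classical PPARA target in rodent liver, read 9.58, 10.04 and 11.12 with WT IRE1a and 9.32, 9.45 and 10.37 with S724A IRE1a, against 9.13, 8.90 and 9.39 with EGFP. Its WT IRE1a arrays lay above all EGFP arrays, by 0.45, 1.15 and 1.73 in the same-number pairs, a change of 1.11 ± 0.38 (adjusted p = 0.091; 0.00297 with the block). Without the replicate 3 array the Ehhadh change was 0.67 ± 0.34 (adjusted p = 0.354) and with the block 0.90 ± 0.21 (adjusted p = 0.019). The companion enzyme Hsd17b4, which PPARA raises less, changed by 0.25 ± 0.13 (adjusted p = 0.287). Acaa1a, a peroxisomal thiolase, read 8.62, 8.48 and 8.45 with WT IRE1a and 8.51, 8.51 and 8.53 with S724A IRE1a, all below 8.79, 8.75 and 8.72 with EGFP (-0.24 ± 0.10 in both; adjusted p = 0.188 and 0.169). Its paralogue Acaa1b changed by -0.11 ± 0.35 and -0.04 ± 0.35, and because the 2 are near-identical copies their signals may mix. The 2 probe sets shared by Acaa1a and Acaa1b went the other way, by 0.25 ± 0.19 and 0.11 ± 0.13 with WT IRE1a. With S724A IRE1a these shared probe sets changed by 0.36 ± 0.19 and 0.21 ± 0.13 and lay wholly above EGFP. None of these changes passed (adjusted p = 0.294 to 0.734 by limma).

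Pex11a, which drives division of peroxisomes, read 9.67, 9.52 and 7.92 with WT IRE1a and 9.56, 9.81 and 9.71 with S724A IRE1a, against 9.29, 8.66 and 9.44 with EGFP. The replicate 3 array was the lowest of the 9 without hairpins, and the change was -0.09 ± 0.34 (adjusted p = 0.913) with that array and 0.47 ± 0.19 (adjusted p = 0.228) without it. The other Pex11a probe set read 8.72, 8.89 and 9.57 with WT IRE1a, against 8.52, 8.37 and 8.64 with EGFP (0.55 ± 0.17, adjusted p = 0.0791). With shCON and glucagon that probe set was lower than EGFP (-0.57 ± 0.17, adjusted p = 0.0403), as the brighter one was on every array (8.46, 8.47 and 8.27; -0.73 ± 0.34, adjusted p = 0.154). The peroxisomal fatty acid transporters Abcd2 and Abcd3 changed by -0.08 to 0.06 over the 5 comparisons, Abcd2 near the detection limit. Over the 7 peroxisomal genes the median change with WT IRE1a was -0.05, with 2 positive and 5 negative.

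Acot1 to Acot4 are neighbouring genes for cytosolic, mitochondrial and peroxisomal acyl-CoA thioesterases, which free fatty acids from CoA, and their similarity lets probes cross between them. Acot1 read 6.57, 7.04 and 8.63 with WT IRE1a and 6.00, 6.66 and 7.65 with S724A IRE1a, against 6.30, 6.39 and 6.85 with EGFP; the groups overlap. Its WT IRE1a change of 0.90 ± 0.48 passed with the block (adjusted p = 0.0151; 0.298 without) and was not called without the replicate 3 array (0.60 ± 0.19 with the block, adjusted p = 0.0796). Acot2 read 8.93, 9.23 and 10.86 with WT IRE1a, against 8.91, 9.16 and 9.12 with EGFP. Its change of 0.61 ± 0.33 (adjusted p = 0.319) was 0.01 ± 0.13 without it. Acot3 and Acot4 changed by -0.05 ± 0.11 and 0.33 ± 0.17 with WT IRE1a.

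Pdk4, the pyruvate dehydrogenase kinase that turns mitochondria from glucose to fat, read 8.11, 9.05 and 9.55 with WT IRE1a and 7.76, 8.48 and 8.78 with S724A IRE1a, against 7.74, 7.93 and 7.998 with EGFP. The WT IRE1a arrays were all higher than EGFP, and 1 of the 3 S724A IRE1a arrays was within the EGFP range. The WT IRE1a change was 1.02 ± 0.40 (adjusted p = 0.149; 0.00338 with the block), and 0.83 ± 0.20 with the block and without the replicate 3 array (adjusted p = 0.0219). In the hairpin arm Pdk4 read 9.28, 7.69 and 8.35 with shIRE1a and 8.51, 7.64 and 8.01 with shCON, a spread between replicates larger than the change of 0.39 ± 0.40. Bdh1, which interconverts the ketone bodies, had the smallest p of this role group under knockdown, at 7.14, 6.14 and 6.99 with shIRE1a and 6.81, 5.82 and 5.98 with shCON (0.55 ± 0.27, adjusted p = 0.654). With WT IRE1a it changed by 0.51 ± 0.27 against EGFP (adjusted p = 0.296).

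Among the secreted and other PPARA targets, Fgf21, a fasting hormone made by the liver, had the largest change with WT IRE1a. It read 7.83, 8.36 and 9.001 with WT IRE1a and 6.58, 7.49 and 8.23 with S724A IRE1a, against 6.44, 6.12 and 7.65 with EGFP. WT IRE1a lay wholly above EGFP, by 1.39, 2.24 and 1.35 in the pairs, whereas S724A IRE1a overlapped EGFP and exceeded it by 0.14, 1.37 and 0.59. The changes of Fgf21 were 1.66 ± 0.51 (adjusted p = 0.0606; 0.000205 with the block) and 0.70 ± 0.51 (adjusted p = 0.419; 0.0367 with the block). Between the IRE1a viruses Fgf21 differed by 0.96 ± 0.51 (adjusted p = 0.851; 0.201 with the block), so the larger change with WT IRE1a was not shown to differ from that with S724A IRE1a. Knockdown gave 6.94, 7.71 and 6.08 with shIRE1a and 7.29, 7.53 and 6.43 with shCON, with no separation (-0.17 ± 0.51). The Fgf21 window (RefSeq, GRCm38.p6, chr7:45615491-45615740, minus strand) is shown because the gene had the largest change with WT IRE1a; capitals mark CGTCA, a CRE half-site read on the other strand.
Fgf21: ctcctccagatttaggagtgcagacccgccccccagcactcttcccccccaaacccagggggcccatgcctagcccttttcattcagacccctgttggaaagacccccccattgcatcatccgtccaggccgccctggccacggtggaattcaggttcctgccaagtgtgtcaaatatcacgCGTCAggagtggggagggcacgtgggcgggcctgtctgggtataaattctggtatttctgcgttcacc

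Angptl4, a secreted inhibitor of lipoprotein lipase, read 12.56, 12.66 and 12.62 with WT IRE1a and 12.54, 12.47 and 12.48 with S724A IRE1a, against 12.15, 11.73 and 11.996 with EGFP. All 6 IRE1a arrays lay above every EGFP array. The changes were 0.65 ± 0.27 (adjusted p = 0.177; 0.00274 with the block) and 0.54 ± 0.27 (adjusted p = 0.246; 0.0113 with the block). Both changes of Angptl4 also passed when limma was fitted on the 6 arrays of each comparison alone (adjusted p = 0.0237 and 0.0347). The lipid droplet coat gene Plin2 changed by 0.08 ± 0.12 with WT IRE1a and by 0.19 ± 0.12 with shIRE1a (adjusted p = 0.75 and 0.721). Vnn1, a pantetheinase that PPARA strongly induces in mouse liver, changed by 0.30 ± 0.32 with WT IRE1a and 0.40 ± 0.32 with S724A IRE1a (adjusted p = 0.659 and 0.474).

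**Figure D4:**
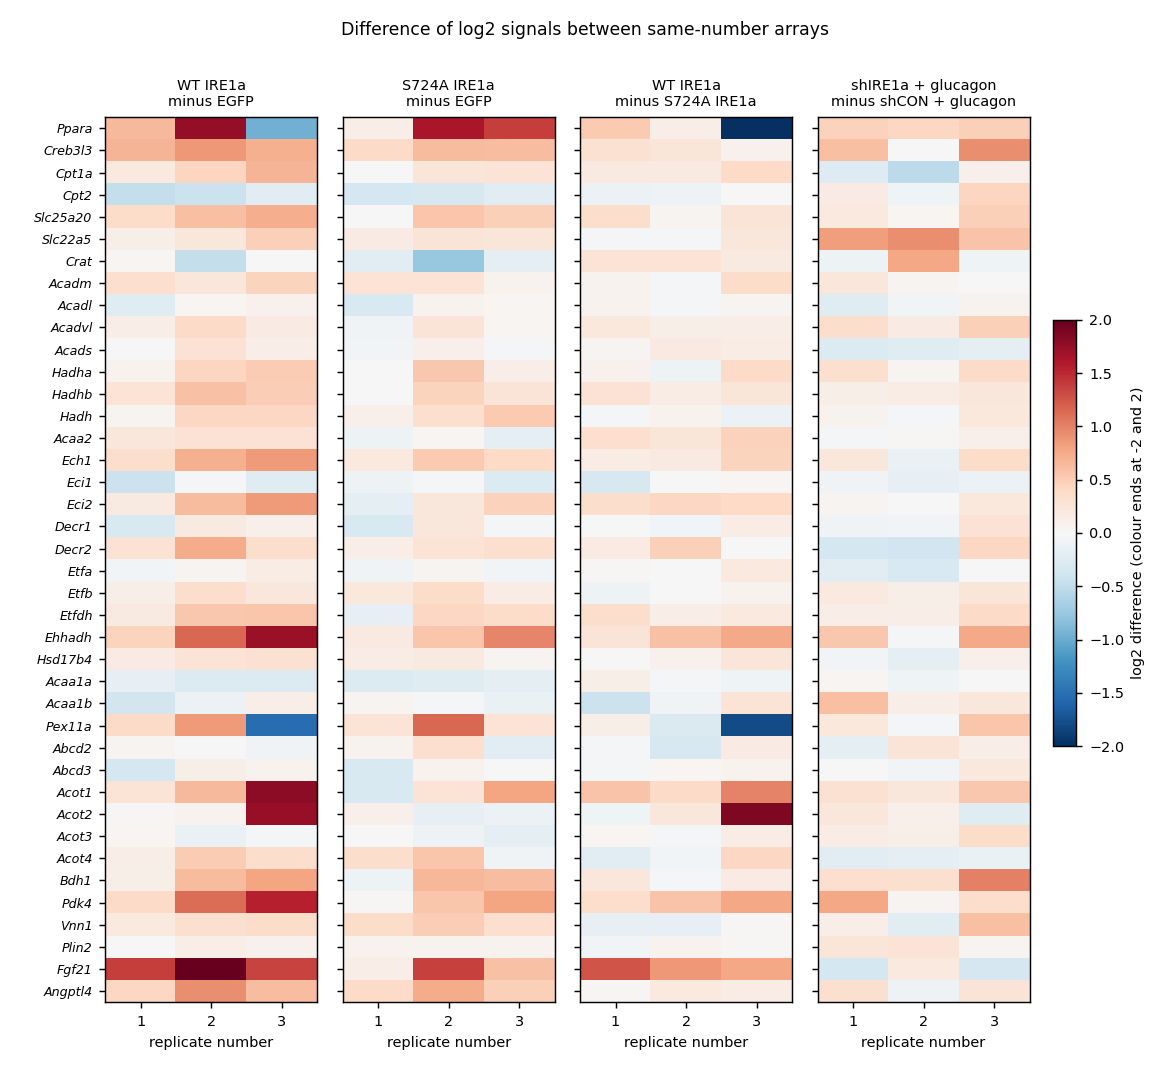
Differences of log2 signals between arrays of the same replicate number, 1 column per number, for the 40 genes in 4 comparisons; red is higher in the group named first, blue lower, and colours end at -2 and 2. In all 3 columns, 26 of the 40 genes are red for WT IRE1a minus EGFP and 18 for S724A IRE1a minus EGFP. Fgf21, Creb3l3 and Angptl4 are among the genes red throughout in both. In the replicate 3 column of WT IRE1a minus EGFP, Ppara (-0.95) and Pex11a (-1.52) are blue while Acot1 (1.78) and Acot2 (1.74) are dark red.

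The pairwise view also showed where the spread lay. The replicate 3 array of WT IRE1a held the highest value among the 9 arrays without hairpins for 22 of the 40 genes, and the replicate 2 array of EGFP held the lowest for 18. For 13 genes with WT IRE1a, the call was made with the block and not without it, while Hadhb was called in both. Of 19 members with more than 1 measured probe set, 15 had the same sign on all of them for WT IRE1a minus EGFP, 13 for S724A IRE1a minus EGFP and 11 for shIRE1a minus shCON.

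Other genes of the pathway were counted from lists of 123 genes, of which 109 could be tested. With WT IRE1a 7 rose and 3 fell, or 6.42% and 2.75%, near the 5.08% and 2.59% of all genes tested. With the block they were 21 and 5, or 19.3% and 4.59%, beside 10.6% and 4.99% of all genes. Without the replicate 3 array of WT IRE1a 2 rose and 3 fell (10 and 5 with the block). With S724A IRE1a 2 rose and 2 fell, 1.83% each, beside 3.87% and 2.25% of all genes, and with the block 10 and 4, or 9.17% and 3.67%. With shIRE1a none passed against shCON (limma), where 0.0491% of all genes were called higher and 0.184% lower. With the block 2 rose and 1 fell, beside 0.534% and 0.694% of all genes. Without the block 11 had an unadjusted p under 0.05, with no share of all genes at that limit given here. Pdk2, a second pyruvate dehydrogenase kinase, rose by 1.19 ± 0.25 with WT IRE1a (8.01 ± 0.21, against 6.82 ± 0.04 with EGFP; SD, n = 3; adjusted p = 0.00763). The peroxisomal import receptor gene Pex7 rose by 0.41 ± 0.09 (adjusted p = 0.00862) and Aldh3a2, a fatty aldehyde dehydrogenase, by 0.70 ± 0.15 (adjusted p = 0.0107). Of the 6 genes named for WT IRE1a, Aldh3a2 lost its call without the replicate 3 array (0.54 ± 0.15, adjusted p = 0.0502). Acad9, an assembly factor of respiratory complex I related to the acyl-CoA dehydrogenases, fell to 8.32 ± 0.15 with WT IRE1a and 8.34 ± 0.08 with S724A IRE1a, against 9.01 ± 0.05 with EGFP (adjusted p = 0.000412 and 0.000561). Slc27a5, a bile acid and fatty acid CoA ligase, changed by -1.19 ± 0.25 (adjusted p = 0.00929) and the thioesterase Acot7 by -0.56 ± 0.10 (adjusted p = 0.0036) with WT IRE1a. With S724A IRE1a the other calls were Pex7 (0.39 ± 0.09) and Sirt3 (0.50 ± 0.14) higher and Acad10 lower (-0.79 ± 0.20).

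Between shCON with glucagon and EGFP, 11 of the 109 pathway genes rose and 12 fell, or 10.1% and 11%, beside 9.34% and 6.74% of all genes tested. Ppargc1a, the coactivator that glucagon induces in liver, read 8.54 ± 0.60 with shCON and glucagon, against 4.60 ± 0.27 with EGFP (SD, n = 3), a rise of 3.94 ± 0.32 (adjusted p = 4.68e-06). The lipid droplet gene Hilpda rose by 2.64 ± 0.27 and the pyruvate dehydrogenase phosphatase gene Pdp2 by 0.63 ± 0.12 (adjusted p = 3.54e-05 and 0.00281). Fabp1, the liver fatty acid binding protein, changed by -1.79 ± 0.38, Slc27a5 by -1.16 ± 0.25 and the acetyl-CoA hydrolase Acot12 by -0.93 ± 0.20 (adjusted p = 0.00636, 0.00737 and 0.00621). With shIRE1a the levels stood at 8.62 ± 0.50 for Ppargc1a and 11.80 ± 0.04 for Hilpda, beside 11.31 ± 0.41 for Hilpda with shCON.

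Promoter windows were at hand for 33 of the 40 genes, 37 windows in all, each the 250 bases before a RefSeq start. The DR1 motif, AGGTCA repeated after a gap of 1 base, searched on both strands like the others, was in none of the 37 and in 0.0335% of all 32851 windows. The half-site AGGTCA was in 6 of 37, or 16.2%, and in 4607 of all windows. The full CRE, TGACGTCA, was in none (1.55% of all), and its half-site TGACG, which also lies within the full CRE and within the UPRE motif, was in 10 of 37, or 27.0%, beside 17.8% of all. Of the motifs tied to the unfolded protein response, TGACGTGG was in none (0.563% of all) and the longer ERSE in none (0.113% of all). DR1, the full CRE, TGACGTGG and ERSE are so rare over all windows that their absence from 37 says little. These are matches of letters in short windows and say nothing of sites further away.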

How the data were processed

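The authors deposited 1 table of probe set signals for the 15 arrays of 5 groups, made with GCRMA per the submitters' processing notes (version not given in the sources used here). No label states the scale; the deposited values behave as log2 signals, with array medians of 5.69 to 5.83, and were used as log2 without further normalisation. Of 45101 probe sets, 64 were controls, 34945 carried 1 symbol, 932 several and 9160 none in GEO's platform annotation, which can be old. Genes with a signal of 4 or more on at least 3 arrays were tested, 16294 in all.

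A model with 5 group means was fitted in limma 3.58.1 (R 4.3.3) with 10 residual degrees of freedom, and p-values were adjusted by Benjamini-Hochberg over all genes tested. Precision is limited by the number of arrays: the median 95% confidence interval had a half-width of 0.30. The series text describes independent experiments, but the labels do not say whether replicates came from separate animals. The p-values thus measure the spread between these samples, which may not be the spread between animals. The replicate numbers are those of the labels. Deviations from group means correlated at 0.20 to 0.69 in the 12 same-number pairs within an arm and at -0.40 to 0.08 in the 24 other pairs within an arm, so the numbers were treated as pairs within an arm; across arms 4 of 18 same-number pairs exceeded 0.1. The linear model without the block was the primary one.

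All 40 genes may be named. Values of each array were to be given for genes past the threshold and for the gene with the smallest p of a role group where none passed; further genes given this way were chosen after their values were seen. Of the pathway lists, up to 3 genes in each direction with the smallest p are named. The members and lists were chosen with earlier results of these data known. Promoter windows were searched with python 3.11.15. The fitting was tested on simulated data. Alternatives in scaling, filter, variance model, probe set choice, block and arrays left out were tried. Probe sets with several symbols were left out of the tests.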

Additional observations from a re-analysis of the deposited data

How the results depend on the processing

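No called change of the 40 genes or of Ern1 reversed under any alternative run, while 71 of 197 changes that had missed the threshold turned sign in at least 1. Fits with the block and another choice together were chosen after seeing the data. For WT IRE1a minus EGFP, 16 of the 40 genes had an unadjusted p under 0.05 in the primary fit (limma), again without a share of all genes. Quantile normalisation, median centring and the mean of probe sets each gave 0 calls of the 40, and the 6 arrays alone gave 2. The replicate block gave 14, with quantile normalisation 14, with median centring 12, with the mean of probe sets 12 and without WT IRE1a replicate 3 9. Of all genes 1250 were called, 1368 with quantile normalisation, 1075 with median centring, 1161 with the mean of probe sets, 963 with the 6 arrays alone, 2539 with the replicate block, 2756 with the block and quantile normalisation, 2245 with median centring and 2389 with the mean of probe sets. Leaving out each array gave 0 to 2 of the 40 and 715 to 1108 of all genes. The median change of the 40 ranged from 0.22 to 0.33 with an array left out for WT IRE1a minus EGFP, from 0.10 to 0.24 for S724A IRE1a minus EGFP and from 0.06 to 0.21 for shIRE1a minus shCON. For S724A IRE1a minus EGFP, 2 of the 40 were called with the 6 arrays alone, 3 with the replicate block, 3 with quantile normalisation added, 3 with median centring added and 5 with the mean of probe sets added. Of all genes 997 were called, 2347 with the block, 2288, 1968 and 2208 with those 3 choices added, and 485 to 979 with an array left out. WT IRE1a minus S724A IRE1a had 0 calls, 2 with the replicate block and 2 with trended and robust variances. For shIRE1a minus shCON 38 genes were called, 23 with median centring, 5 with the 6 arrays alone, 200 with the replicate block and 13 to 75 with an array left out; of the 40, 0 were called with median centring, 0 with the 6 arrays alone and 0 to 1 with an array left out. For shCON minus EGFP, leaving out each array gave 1330 to 2756 of all genes, against 2620, and 3 to 8 of the 40. The block changed no other call than those given, and no paired analysis was possible for shCON minus EGFP because the numbers did not pair arrays across the arms. Quantile normalisation moved the share of calls that were higher to 55.4% from 66.2% for WT IRE1a, to 48.3% from 63.3% for S724A IRE1a, to 34.6% from 21.1% for shIRE1a and to 45.2% from 58.1% for shCON. The cause of these shifts was not tested.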

Other observations

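Probe sets shared by several of the genes were not used for the comparisons. Between shCON with glucagon and EGFP, the 2 probe sets shared by Acaa1a and Acaa1b were higher by 0.64 ± 0.19 (adjusted p = 0.0407 by limma) and 0.45 ± 0.13 (adjusted p = 0.0346), and neither gene's own probe set was called there. The probe set shared by Acot1 and Acot2 changed by 0.80 ± 0.43 with WT IRE1a against EGFP (adjusted p = 0.365). Crat was also measured by a dimmer probe set, which was higher by 0.60 ± 0.15 with shCON and glucagon than with EGFP (adjusted p = 0.0168), where the brighter probe set of Crat changed by -0.43 ± 0.16.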
